A study of Mus musculus with 8 samples.

Results

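Messenger RNA of skeletal muscle was examined in dorsal root ganglia of E18.5 mouse embryos. The set held 35 genes named for their known roles in the sarcomere, in calcium handling, in muscle energy metabolism and in myogenic regulation, out of 55414 gene identifiers in the count tables. Each of the 35 symbols matched 1 identifier. The series compared 4 AD1 OE libraries (AdvillinCre/+;Rosa26Dach1/+), in which Advillin-driven Cre removes a stop cassette and turns on Dach1 and EGFP from the Rosa26 locus in postmitotic somatosensory neurons, with 4 Control libraries (Advillin+/+;Rosa26Dach1/+), which carry the same Dach1 allele without Cre. All 8 libraries were bulk RNA-seq of whole ganglia with 22339059 to 44025625 counts each, and levels are given as CPM, the counts scaled to library size with TMM factors. The replicates of each genotype are embryos, and whether they were littermates is not given in the sources used here. The level of Dach1 was 95.9 ± 5.28 CPM in the AD1 OE libraries against 32.6 ± 1.64 CPM in the Control libraries (SD, n = 4 each), with no overlap.

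A dorsal root ganglion holds the cell bodies of sensory neurons with their glia, and skeletal muscle is not one of its tissues, although axial muscle lies close by. The sarcomere is the contractile unit of striated muscle, in which myosin heavy and light chains pull on actin filaments, troponin and tropomyosin switch the filaments on when calcium is released, and titin, nebulin and actinin hold the lattice in place. Before birth muscle fibres carry developmental isoforms, embryonic myosin (Myh3), perinatal myosin (Myh8) and cardiac actin (Actc1), which are later replaced by adult fast and slow forms. The myogenic factors Myod1 and myogenin (Myog) bind E boxes in muscle promoters, and serum response factor binds CArG boxes, which are known from actin genes.

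Promoters of 29 of the 35 genes were found among RefSeq promoter sequences of build GRCm38.p6. An E box, CANNTG on either strand, stood within 250 bases upstream of the start in 25 of these 29 genes (86.2%) and in 69.3% of 27025 genes with a promoter sequence. A CArG box stood there in 4 of the 29 (13.8%, Acta1, Actc1, Myh4 and Myl3), against 1.62% of all genes. A loose MEF2-like pattern, CTA and TAG with any 4 bases between them, stood in 1 of the 29 (3.45%, Ttn), against 3.70% of all genes. Its 4 middle bases were not limited to A and T, so these shares do not give the frequency of MEF2 sites. The windows of 4 genes are shown as examples, those of the actin pair, the metabolic gene Ckm and the regulator Myog. They are written 5′ to 3′ on the strand of the gene, with E boxes and CArG boxes in capitals. The window of Acta1 lies at chr8:123894776-123895025 (minus strand), that of Actc1 at chr2:114052876-114053125 (minus strand), that of Ckm at chr7:19410844-19411093 (plus strand) and that of Myog at chr1:134289754-134290003 (plus strand).
Acta1: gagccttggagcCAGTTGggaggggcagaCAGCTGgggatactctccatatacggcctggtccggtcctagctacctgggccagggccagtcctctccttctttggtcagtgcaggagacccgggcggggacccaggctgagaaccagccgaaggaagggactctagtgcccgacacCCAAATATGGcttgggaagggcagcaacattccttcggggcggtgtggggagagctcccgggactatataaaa
Actc1: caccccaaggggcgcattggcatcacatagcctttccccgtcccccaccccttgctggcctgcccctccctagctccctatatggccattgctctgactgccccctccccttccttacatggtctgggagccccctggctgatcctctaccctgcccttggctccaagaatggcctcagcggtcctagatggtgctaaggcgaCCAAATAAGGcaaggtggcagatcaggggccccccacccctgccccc
Ckm: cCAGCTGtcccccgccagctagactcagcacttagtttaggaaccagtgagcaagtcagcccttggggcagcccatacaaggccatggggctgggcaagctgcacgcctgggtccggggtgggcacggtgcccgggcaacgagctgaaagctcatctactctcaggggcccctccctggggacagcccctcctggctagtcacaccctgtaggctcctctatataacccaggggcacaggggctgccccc
Myog: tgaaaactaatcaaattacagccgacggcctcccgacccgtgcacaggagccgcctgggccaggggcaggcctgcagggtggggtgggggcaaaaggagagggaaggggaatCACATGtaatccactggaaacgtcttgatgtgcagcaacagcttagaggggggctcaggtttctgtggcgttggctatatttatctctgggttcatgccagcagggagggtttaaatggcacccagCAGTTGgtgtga
In these windows Acta1 had 2 E boxes and 1 CArG box, and Actc1 had 1 CArG box and no E box. Ckm had 1 E box and Myog had 2, both without a CArG box. A match of letters is a description and shows no binding.

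Transcripts of skeletal muscle were present in every library at a low level that differed strongly from one library to the next. The 35 genes together reached 746, 808, 1720 and 628 CPM in AD1 OE replicates 1 to 4 and 1144, 1147, 825 and 705 CPM in Control replicates 1 to 4. This was 0.0630% to 0.173% of all counts in a library, and the highest library stood 2.74-fold above the lowest. Much of the sum was Tpm1, a tropomyosin that many cell types express, at 347 to 446 CPM. Without Tpm1 the sum was 379, 445, 1274 and 281 CPM in AD1 OE and 763, 740, 451 and 333 CPM in Control. AD1 OE 3 stood above all other libraries, Control 1 and Control 2 came next, and AD1 OE 4 and Control 4 were lowest, so both genotypes held high and low libraries. Fewer muscle cells and less muscle RNA per cell cannot be told apart in bulk RNA, and the cells of origin of these transcripts were not tested.

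The order of the libraries was shared by nearly all members. AD1 OE 3 was the highest library for 32 of the 35 genes, the exceptions being Actn3 and Myh1, which were highest in Control 2, and Myh4, whose 0 to 4 counts a library give no order. AD1 OE 4 was the lowest for 21 of the 35 and Control 4 for 8. Among the 15518 genes that averaged 1 CPM or more, AD1 OE 3 was highest for 15.7% and AD1 OE 4 lowest for 13.8%. The ratio of the highest to the lowest library had a median of 1.24 over those genes and was over 3 for 1.79% of them.

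**Figure D1:**
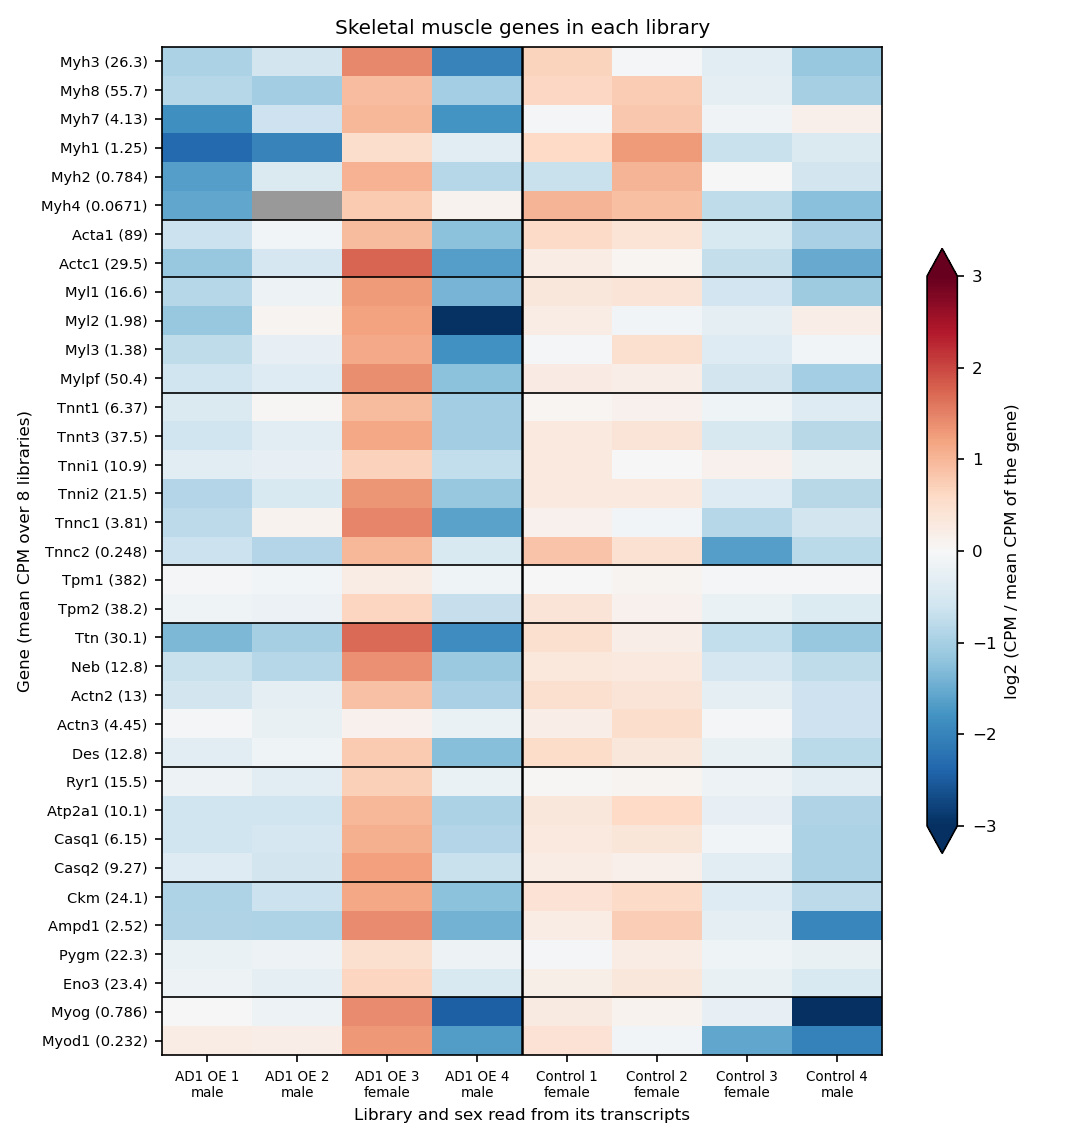
Levels of the 35 skeletal muscle genes (rows, with the mean CPM over 8 libraries in brackets) in the 8 libraries (columns, with the sex read from each library). The colour gives the log2 ratio of CPM to the mean of the gene, and grey marks the count of 0 of Myh4 in AD1 OE 2. The column of AD1 OE 3 is high for nearly all genes, and those of AD1 OE 4 and Control 4 are low for most.

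Acta1, the actin of mature skeletal muscle fibres, served as the reference. Acta1 was at 56.6, 83.9, 173 and 37.6 CPM in AD1 OE replicates 1 to 4 and at 132, 119, 65.3 and 45.1 CPM in Control replicates 1 to 4. The groups overlapped along their whole range. Actc1, the cardiac actin that fetal skeletal muscle also makes, was at 13.4, 20.9, 98.8 and 9.39 CPM in AD1 OE and at 34.5, 30.8, 17.8 and 10.3 CPM in Control. It ordered the 8 libraries exactly as Acta1 did, and rose further above the rest in AD1 OE 3, at 10.5 times the level of AD1 OE 4 against 4.60 times for Acta1.

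The heavy chains of myosin, the motors of the sarcomere, were dominated by the developmental forms. Myh8 was at 31.0, 26.9, 107 and 27.3 CPM in AD1 OE and at 85.5, 94.7, 45.8 and 28.1 CPM in Control. Myh3 was at 13.7, 18.0, 72.0 and 6.62 CPM in AD1 OE and at 41.5, 25.9, 21.1 and 12.0 CPM in Control. Both were highest in AD1 OE 3, and both were higher in Control 1 and Control 2 than in the other 3 AD1 OE libraries. The slow myosin Myh7 was lower, at 1.15, 2.67, 8.26 and 1.19 CPM in AD1 OE and at 4.05, 7.29, 3.85 and 4.60 CPM in Control. Of the adult fast forms, Myh1 was at 0.249, 0.312, 1.80 and 1.01 CPM in AD1 OE and at 1.89, 3.05, 0.786 and 0.932 CPM in Control. Myh2 was at 0.249, 0.579, 1.61 and 0.432 CPM in AD1 OE and at 0.495, 1.59, 0.786 and 0.537 CPM in Control. These adult forms rested on 7 to 98 counts a library, and the groups overlapped for each of them. Myh4, the fastest adult form, had 1, 0, 3 and 2 counts in AD1 OE and 3, 4, 1 and 1 counts in Control. Its count of 0 in AD1 OE 2 allows up to 0.134 CPM (3 counts), so its level could not be ranked at this depth.

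Per kilobase of transcript, Myh3 and Myh8 together made up 92.7% ± 2.86 of the summed level of the 6 heavy chains (SD, n = 8). Their joint share was 96.4, 92.8, 93.9 and 92.6% in AD1 OE and 95.1, 91.0, 92.5 and 87.0% in Control, or 93.9% ± 1.76 against 91.4% ± 3.42 (SD, n = 4 each). Control 4 had the lowest share, and the groups overlapped. Myh8 alone took 55.1% to 74.3% of the summed level, Myh3 18.4% to 38.3%, Myh7 2.44% to 9.79%, Myh1 0.540% to 2.77% and Myh2 0.372% to 1.21%. The fetal pattern was therefore present in all 8 libraries, including those with the least muscle RNA. The heavy chain genes are close paralogs, so reads could be split between them, and Myh7, Myh1 and Myh2 also overlap genes of the opposite strand, for which the strand setting of the counting is not given in the sources used here.

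Among the light chains, Mylpf, the regulatory light chain of fast fibres, was at 33.2, 38.7, 132 and 21.4 CPM in AD1 OE and at 60.1, 57.7, 34.5 and 25.0 CPM in Control. It kept the library order of Acta1. Myl1, the fast alkali light chain, ranged from 6.33 to 40.3 CPM. The slow and cardiac forms Myl2 and Myl3 ranged from 0.252 to 4.55 CPM and from 0.396 to 3.06 CPM. Myl2 had the widest ratio between AD1 OE 3 and AD1 OE 4 among members with more than 3 counts in both, 18.1-fold, on 119 and 7 counts. Myl2 and Myl3 each overlap a gene of the opposite strand.

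Troponins carry the calcium signal to the filament. Tnnt3, the fast tropomyosin-binding subunit, was at 24.8, 30.3, 83.7 and 18.2 CPM in AD1 OE and at 45.7, 48.9, 27.0 and 21.2 CPM in Control. Tnnt1, its slow counterpart, was at 4.75, 6.55, 12.3 and 3.09 CPM in AD1 OE and at 6.66, 6.91, 5.86 and 4.89 CPM in Control. Both were highest in AD1 OE 3 and lowest in AD1 OE 4, within 1 genotype. The fast inhibitory subunit Tnni2 was at 11.7, 15.8, 53.9 and 9.79 CPM in AD1 OE and at 26.3, 26.5, 16.4 and 12.1 CPM in Control. The slow inhibitory subunit Tnni1 was at 8.64, 9.09, 17.6 and 6.51 CPM in AD1 OE and at 13.3, 10.7, 11.8 and 9.26 CPM in Control. Tnni1 thus varied less between libraries (2.7-fold) than Tnni2 (5.51-fold). The calcium-binding subunit Tnnc1 ranged from 1.26 to 10.4 CPM, and Tnnc2, which had 2 to 13 counts and overlaps Ube2c on the opposite strand, did not pass the expression filter.

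The tropomyosins, which lie along the actin filament, differed from each other. Tpm1 was at 368, 363, 446 and 347 CPM in AD1 OE and at 381, 407, 373 and 371 CPM in Control, a spread of only 1.29-fold that kept AD1 OE 3 highest and AD1 OE 4 lowest. Tpm2 ranged from 23.6 to 59.6 CPM (2.53-fold). On the scale of CPM per kilobase, the mean levels over the 8 libraries were highest for Tpm1 (132), Mylpf (65.8), Acta1 (61.5), Tnnt3 (34.7), Tnni2 (28.1) and Actc1 (20.02).

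Of the scaffold genes, all but Actn3 were highest in AD1 OE 3 and lowest in AD1 OE 4. Desmin (Des), the intermediate filament of muscle, was at 10.3, 11.6, 22.1 and 5.25 CPM in AD1 OE and at 18.8, 16.1, 11.0 and 7.29 CPM in Control. Titin (Ttn), the molecular spring, ranged from 8.24 to 97.7 CPM, the latter in AD1 OE 3, where it was 11.9 times the level of AD1 OE 4. Nebulin (Neb) ranged from 5.90 to 33.3 CPM and the Z-disc actinin Actn2 from 6.58 to 23.8 CPM. Actn3, the actinin of fast fibres, departed from this pattern with 2.91 to 6.39 CPM and its highest level in Control 2.

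Of the genes of calcium handling, the release channel Ryr1 was at 14.0, 12.5, 25.3 and 13.6 CPM in AD1 OE and at 16.0, 16.4, 14.0 and 12.5 CPM in Control. Apart from AD1 OE 3 its levels lay close together. Casq2, the calcium store protein of slow and cardiac muscle, was at 7.12, 6.33, 21.7 and 5.83 CPM in AD1 OE and at 10.8, 10.2, 7.43 and 4.77 CPM in Control. Its fast counterpart Casq1 ranged from 3.19 to 13.0 CPM and the calcium pump Atp2a1 from 5.22 to 20.2 CPM. Creatine kinase (Ckm), which buffers ATP in muscle, was at 12.8, 15.4, 54.0 and 10.3 CPM in AD1 OE and at 32.4, 35.6, 18.6 and 14.0 CPM in Control. The AMP deaminase Ampd1 ranged from 0.650 to 6.69 CPM. The muscle enolase Eno3 (17.1 to 37.0 CPM) and the glycogen phosphorylase Pygm (19.0 to 31.3 CPM) varied by 2.16-fold and 1.65-fold only.

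The regulators of the lineage were barely detected. Myog, which drives differentiation of myoblasts, was at 0.791, 0.713, 2.10 and 0.144 CPM in AD1 OE and at 0.945, 0.841, 0.668 and 0.0847 CPM in Control, or 3 to 55 counts. Myod1, the determination factor, was at 0.271, 0.267, 0.574 and 0.0720 CPM in AD1 OE and at 0.315, 0.218, 0.0786 and 0.0565 CPM in Control, or 2 to 15 counts, and did not pass the filter. Both were highest in AD1 OE 3, and both were among the lowest in AD1 OE 4 and Control 4. Myod1 had 2 counts in each of AD1 OE 4, Control 3 and Control 4.

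Co-variation was measured as the correlation of log2 CPM with Acta1 over the 8 libraries. Over the 31 other members that passed the filter, the median Pearson r was 0.914, against 0.0127 over all 17720 genes compared with Acta1. It was over 0.9 for 17 of the 31 members and for 82 of all genes (0.463%). The highest were Myl1 (r = 0.988), Actn2 (0.983) and Des (0.979), and the lowest were Myh1 (0.530), Myh2 (0.674), Myh7 (0.723) and Actn3 (0.724). Actc1 (r = 0.958, Spearman's rho = 1), Mylpf (r = 0.958, rho = 1) and Des (rho = 1) ordered the libraries as Acta1 did. For Actc1 the exact permutation test over all pairings of the libraries (two-sided) gave the smallest p it can give, 2.48e-05, or 0.0628 after Benjamini-Hochberg adjustment over all genes. No gene of the table passed an adjusted p of 0.05 in that test (0% of 17720), while 29 of 31 members had an unadjusted p under 0.05, against 7.40% of all genes. A gene at the smallest p passes the adjustment only if enough others share it, so this 0 does not show absence of correlation. Without AD1 OE 3 and AD1 OE 4, the libraries farthest from the median of Acta1, the median r was 0.870 and 11 members stayed over 0.9. With the group means removed, the median r was 0.916, so the co-variation lay within the genotypes.

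**Figure D2:**
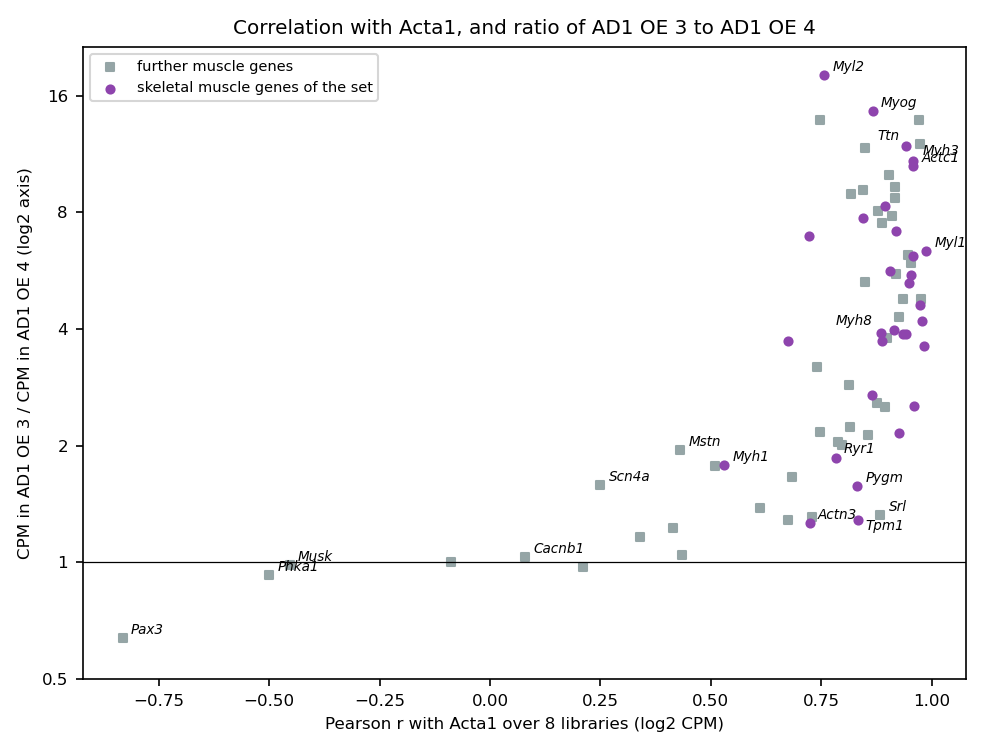
Pearson r with Acta1 over the 8 libraries (horizontal axis) against the ratio of CPM in AD1 OE 3 to CPM in AD1 OE 4 (vertical axis, log scale), 1 point a gene with more than 3 counts in AD1 OE 4. Circles are genes of the set and squares are further muscle genes. Most genes of the set lie at the right above 2-fold, whereas Myh1, Actn3, Pygm, Ryr1 and Tpm1 lie below it.

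The transcripts were not scaled by 1 common factor, since related genes changed their ratio in particular libraries. Actc1 took 19.2% (95% Wilson interval 17.8 to 20.6), 19.9% (18.3 to 21.6), 36.3% (35.2 to 37.5) and 19.97% (17.9 to 22.2) of the summed counts of Actc1 and Acta1 in AD1 OE replicates 1 to 4. In Control replicates 1 to 4 it took 20.8% (19.5 to 22.1), 20.6% (19.5 to 21.8), 21.5% (19.8 to 23.3) and 18.6% (16.9 to 20.4). The share was thus nearly constant in 7 libraries, over a wide range of muscle RNA, and higher in AD1 OE 3 alone. These intervals cover counting error only.

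Myh3 took 30.6, 40.1, 40.3 and 19.5% of the counts of Myh3 and Myh8 in AD1 OE and 32.7, 21.5, 31.5 and 29.9% in Control. AD1 OE 4 (17.1 to 22.2) and Control 2 (20.2 to 22.8) had the lowest shares, and AD1 OE 2 and AD1 OE 3 the highest. The slow troponin Tnni1 took 24.6% (22.7 to 26.6) of Tnni1 and Tnni2 in AD1 OE 3 and 28.9% (26.4 to 31.5) in Control 2. In the other 6 libraries it took 33.6% to 43.4%. The interval of Control 2 overlapped those of AD1 OE 3 and of Control 1 (30.5 to 36.7). For the troponin T pair, Tnnt1 took 12.4% to 18.7% of Tnnt1 and Tnnt3, and for the calsequestrins Casq2 took 56.1% to 63.5% of Casq2 and Casq1, with intervals of the 8 libraries that overlapped for Casq2. Myh7 took 14.1% (12.2 to 16.2) of Myh7 and Myh8 in Control 4 against 3.59% to 9.04% elsewhere, with no overlap of the Control 4 interval with any other. Myl3 took 14.1% (10.7 to 18.3) of Myl3 and Myl1 in Control 4 and 5.88% to 8.63% elsewhere, where the interval overlapped those of AD1 OE 1 and Control 3.

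**Figure D3:**
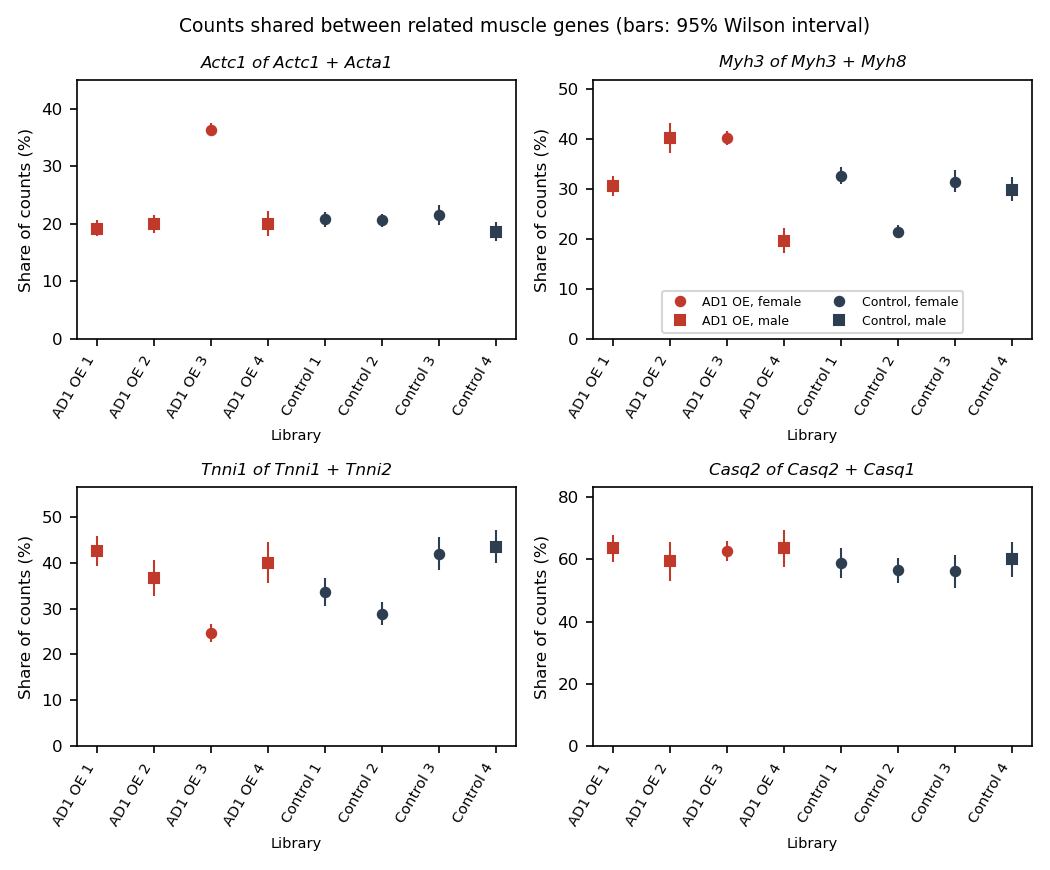
Share of the counts of a gene pair taken by its first gene (%, vertical axis) in each library (horizontal axis), with 95% Wilson intervals as bars, colour for genotype and marker shape for sex. Actc1 is near 20% in 7 libraries and at 36.3% in AD1 OE 3. The share of Myh3 ranges from 19.5% to 40.3% and that of Casq2 from 56.1% to 63.5%.

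The skeletal muscle genes did not separate AD1 OE from Control. Of the 32 members that passed the filter, edgeR's quasi-likelihood test called 0, a call being an adjusted p below 0.005 with a log2 fold change beyond 0.25 in either direction, against 2.57% of 17721 genes (455 genes, 139 higher and 316 lower in AD1 OE). None of the 32 had an unadjusted p under 0.05, against 18.6% of all genes, and in none did the 4 libraries of a group all lie above or below the other 4, against 13.0% of all genes. DESeq2 and limma-voom also called 0 members. With DESeq2, 0 of 35 had an unadjusted p under 0.05, against 3258 of 36426 genes. With limma-voom 2 of 32 did, against 3295 of 17721 genes. The median log2 fold change of the members was 0.01, with 15 of 32 below 0, and that of all genes was 0.00. The errors were wide, so this does not show equal levels.

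Acta1 averaged 87.8 ± 59.9 CPM in AD1 OE against 90.1 ± 41.5 CPM in Control (SD, n = 4 each). Its log2 fold change was -0.04 ± 0.43 (SE; edgeR adjusted p = 0.978). Actc1, at 35.6 ± 42.4 against 23.4 ± 11.3 CPM, had a log2 fold change of 0.61 ± 0.64 (SE; edgeR adjusted p = 0.676). Myh3 was at 27.6 ± 30.0 against 25.1 ± 12.4 CPM and Myh8 at 47.9 ± 39.1 against 63.5 ± 31.7 CPM, with log2 fold changes of 0.14 ± 0.59 and -0.41 ± 0.47 (SE). The lowest adjusted p among the members, 0.368 by edgeR, was that of Myh1, at 0.841 ± 0.724 against 1.67 ± 1.05 CPM. For Acta1, Actc1, Myh3 and Myh8 the SD was larger in AD1 OE than in Control, and AD1 OE 3 was the highest library.

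The comparison rested on that library. Without AD1 OE 3 all 32 members had a log2 fold change below 0, with a median of -0.61, and 15 had an unadjusted p under 0.05, against 20.2% of all genes in that fit, although edgeR still called 0. The lowest adjusted p was then 0.00800, for Myh7, with a log2 fold change of -1.64 ± 0.31 (SE). With any other single library left out, the median lay between -0.11 and 0.22.

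**Figure D4:**
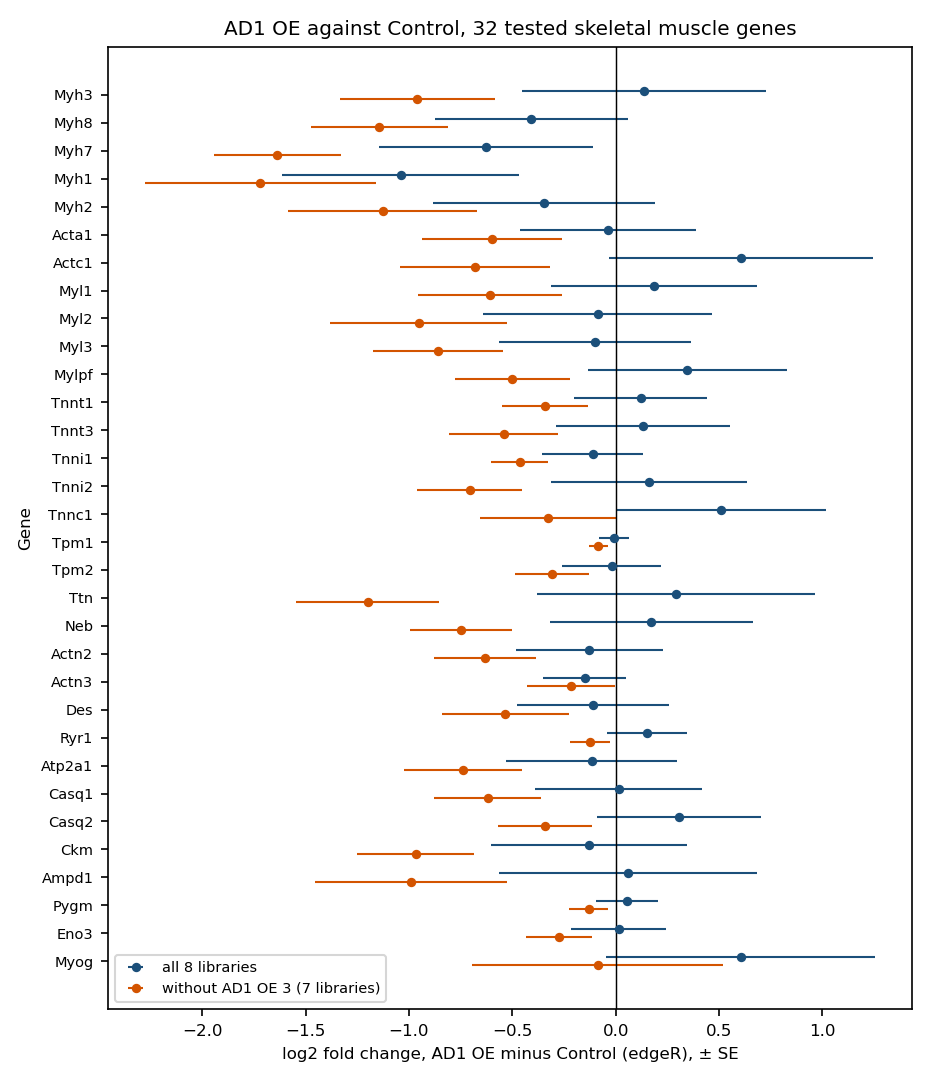
Log2 fold change of AD1 OE minus Control with its SE (horizontal axis, edgeR) for the 32 tested skeletal muscle genes (rows), with all 8 libraries and without AD1 OE 3. With 8 libraries the values lie on both sides of 0 and the median is 0.01. Without AD1 OE 3, the only AD1 OE library read as female, all lie below 0.

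The libraries also differed in sex, read from Xist and 4 Y-linked genes. AD1 OE 3 and Control 1, 2 and 3 were female and AD1 OE 1, 2 and 4 and Control 4 were male, so sex and genotype are unevenly mixed. All 32 tested members were higher in female libraries in an edgeR fit with genotype as a term, chosen after the data had been seen, with a median log2 difference of 1.40. An unadjusted p under 0.05 was reached by 31 of the 32, against 6.68% of all genes. The limits given above were passed by 4 of the 32, Ampd1, Casq1, Casq2 and Myh8, against 0.0677% of 17721 genes (12 genes). For 16 of the 32 the 4 female libraries all lay above the 4 male ones, as they did for 2.46% of all genes. The members share their libraries and largely one library order, so these counts are not independent results. The sum of the 35 genes was 825 to 1720 CPM in the female and 628 to 808 CPM in the male libraries. Without Tpm1 it was 451 to 1274 CPM and 281 to 445 CPM. The summed level thus did not overlap between the sexes, but the gap between the female Control 3 and the male AD1 OE 2 was narrow.

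Ampd1 averaged 3.97 CPM in female and 1.07 CPM in male libraries, with a log2 difference of 2.38 ± 0.24 (SE; edgeR adjusted p = 0.00138). Casq1 averaged 8.55 and 3.74 CPM (1.47 ± 0.16, edgeR adjusted p = 0.00159), and Casq2, likewise higher in female libraries, averaged 12.5 and 6.01 CPM (1.41 ± 0.16, edgeR adjusted p = 0.00331). Myh8 averaged 83.1 and 28.3 CPM, with a log2 difference of 1.67 ± 0.20 (SE; edgeR adjusted p = 0.00423). For Acta1, at 122 and 55.8 CPM, the sexes overlapped, since the female Control 3 (65.3 CPM) lay below the male AD1 OE 2 (83.9 CPM), and the edgeR adjusted p was 0.0541. These calls also depended on single libraries. Without AD1 OE 3 and without AD1 OE 2 the number of members called was 0, where 0.0388% and 0.0332% of all genes were called. It was 1 without AD1 OE 1, AD1 OE 4 or Control 2 (0.0446%, 0.0391% and 0.0390% of all genes) and 2 without Control 1 (0.0609%). It was 16 without Control 3, where 0.194% of all genes were called (35 genes). Without Control 4 the median log2 difference was 1.86. Every Control library left was then female, so this difference came only from AD1 OE 3 against AD1 OE 1, 2 and 4. Without AD1 OE 3, 31 of 32 stayed higher in female libraries and 23 had an unadjusted p under 0.05, against 3.43% of all genes, with a median log2 difference of 0.94 and a lowest adjusted p of 0.25 (edgeR). With sex as a term in the comparison of genotypes, the median log2 fold change of the members was 0.46, with 2 of 32 below 0. In that edgeR fit 18 had an unadjusted p under 0.05, against 15.3% of all genes. Since the members share their libraries, the 18 are not independent. Still 0 members were called, the lowest edgeR adjusted p being 0.00838, for Casq2. Only 1 AD1 OE library was female and only 1 Control library male, so the part of each in these differences was not tested.

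**Figure D5:**
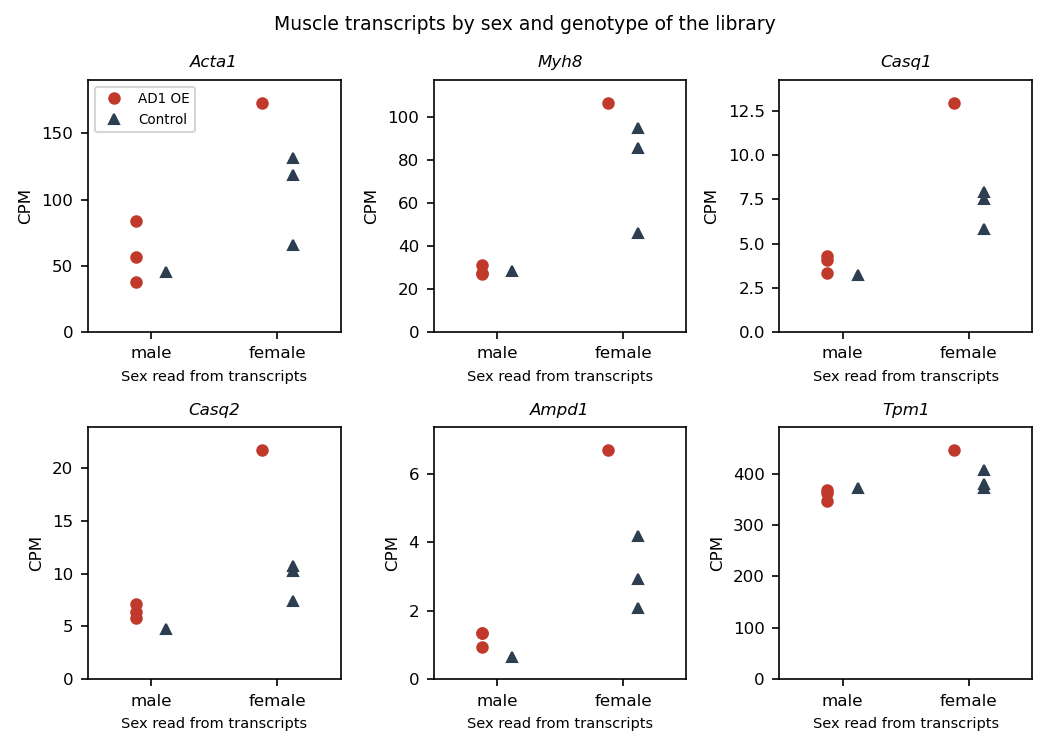
CPM (vertical axes, from 0) of 6 skeletal muscle genes in the 8 libraries, by the sex read from each library (horizontal axis) and genotype (circles AD1 OE, triangles Control). The 4 female libraries lie above the 4 male ones for Myh8, Casq1, Casq2, Ampd1 and Tpm1, but not for Acta1, and the single female AD1 OE library is the highest in each panel.

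A further list of 53 muscle genes was compared with Acta1 in the same way. Of the 47 that passed the filter, 12 had r over 0.9. They included Trdn, the triadin of the calcium release complex (r = 0.973, rho = 1), Myoz1 (0.975), a Z-disc protein, Lmod2 (0.972), an actin-filament nucleator, and Mybpc1 (0.946), the slow myosin-binding protein. By class these were 8 of 20 sarcomere genes, 3 of 12 genes of excitation, 1 of 5 tested genes of metabolism, 0 of 7 tested genes of the endplate and 0 of 3 tested precursor genes. The 7 endplate genes spread from r = 0.844 for Chrng, the fetal subunit of the acetylcholine receptor, and 0.746 for its subunit Chrna1, over 0.674 for Dok7, 0.434 for Rapsn, 0.339 for Chrnb1 and 0.211 for Chrne, to -0.454 for the receptor kinase Musk. Pax3, a factor of muscle precursors and of neural crest, had r = -0.832. The satellite cell factor Pax7 (0.144 to 0.446 CPM) was near the limit of detection.

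edgeR called 0 of these 47 genes between the genotypes, with 6 at an unadjusted p under 0.05, while in 3 the groups did not overlap, Scn4a, Mstn and Cacnb1. Over all genes 2.57% were called, 18.6% had such a p and 13.0% did not overlap, so neither count of muscle genes exceeded the share over all genes, and the 3 genes are given as values. Scn4a, the sodium channel of skeletal muscle, was at 5.99, 5.79, 8.64 and 5.47 CPM in AD1 OE and at 2.83, 4.49, 3.62 and 2.71 CPM in Control. All AD1 OE libraries were higher, with a log2 fold change of 0.92 ± 0.18 (SE; edgeR adjusted p = 0.0102), and its r with Acta1 was only 0.249. Mstn, the inhibitor of muscle growth myostatin, was at 0.701, 0.535, 1.26 and 0.648 CPM in AD1 OE and at 2.43, 1.81, 1.69 and 1.64 CPM in Control. All AD1 OE libraries were lower, with a log2 fold change of -1.25 ± 0.25 (SE; edgeR adjusted p = 0.00960) and r = 0.431 with Acta1. DESeq2 called both, with adjusted p of 6.77e-05 for Scn4a and 0.000414 for Mstn. Cacnb1, a calcium channel subunit also made by neurons, was at 79.0, 75.3, 84.6 and 82.0 CPM in AD1 OE and at 84.7, 91.1, 91.2 and 89.8 CPM in Control (log2 fold change -0.15 ± 0.04, SE; edgeR adjusted p = 0.0585).

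Outside both lists, of the genes averaging 1 CPM or more, the 10 most like Acta1 were Synpo2l (r = 0.993), Mrps30 (0.983), Dirc2 (0.974), Hspb1 (0.973), Poc1b (0.971), Tceal7 (0.963), Stim2 (0.962), Pak4 (0.962), H2afx (0.958) and Myoz2 (0.957), over 8 libraries. Synpo2l and Myoz2, both Z-disc proteins, and Tceal7 differed between AD1 OE 3 and AD1 OE 4 by 4.97-fold, 8.38-fold and 11.5-fold. The other 7 differed by 1.13-fold to 1.44-fold only. Tceal7 was at 3.55, 5.21, 22.4 and 1.94 CPM in AD1 OE and at 9.45, 7.38, 4.24 and 3.28 CPM in Control, the library order of Acta1 (rho = 1).

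Markers of other tissues were read beside the muscle genes. Among lists for cartilage, bone, tendon, brown fat, cardiac muscle, smooth muscle, epidermis, spinal cord, erythroid cells, fibroblasts, glia and sensory neurons, no gene had r over 0.9 with Acta1. The closest were Foxd3 of the glia (r = 0.895, 12.3 to 18.48 CPM), Tnnt2 of the cardiac list (0.853) and Prph of the sensory neurons (0.814, 1917 to 2320 CPM), values within the range of the muscle genes, although their levels varied less, Tnnt2 apart. The median r of the lists ran from -0.271 (bone) to 0.408 (erythroid cells). The 7 sensory neuron markers summed to 5059 to 5802 CPM in the AD1 OE libraries and to 5934 to 6139 CPM in the Control libraries, so the labelled tissue was present in every library. The groups did not overlap with Avil, whose locus holds the Cre allele, but without Avil the sums overlapped, at 4610 to 5336 CPM in AD1 OE, highest in AD1 OE 3, against 5028 to 5220 CPM in Control. Of the 8 cardiac markers, Nkx2-5 alone had 0 counts in all 8 libraries. Myh6 (278 to 648 counts), Tnni3 (21 to 58), Mybpc3 (3 to 22), Myl7 (2 to 21) and Nppa (4 to 10) had counts in every library. The cardiac list as a whole was highest in AD1 OE 3, at 40.1 CPM against 21.8 to 25.3 CPM in the others. Within it Tnnt2 (1.80 to 8.87 CPM, r = 0.853) and Myl4 (3.09 to 14.2 CPM, r = 0.749), which fetal skeletal muscle also makes, were highest in AD1 OE 3, whereas Myh6 stayed between 12.5 and 15.7 CPM. The part of these markers in the muscle signal was not tested. The smooth muscle sum ranged from 66.8 to 84.6 CPM in AD1 OE and from 72.5 to 84.1 CPM in Control. The bone list was high in AD1 OE 3 (136 CPM) and also in AD1 OE 4 (126 CPM), the libraries with the most and least muscle RNA, against 43.8 to 92.0 CPM in the other 6. The tendon list of 5 genes spanned only 1.24-fold (142 to 176 CPM). Among these, Tnmd was at 8.87 CPM in AD1 OE 3 against 1.13 to 2.60 CPM in the others, whereas Scx (7.35 to 9.68 CPM) and Mkx (4.79 to 6.37 CPM) varied little.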

How the data were processed

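Whole dorsal root ganglia of E18.5 embryos were sequenced as 4 AD1 OE and 4 Control libraries, grouped by the sample titles. The authors aligned reads of a stranded mRNA kit to GRCm39 with STAR 2.7.8a and deposited featureCounts 2.0.1 gene counts, 1 table a library. The strand setting of the counting is not given in the sources used here. The counts are not normalized, and 0 lines named no gene. Symbols (52081 of 55414 identifiers), transcript lengths and overlapping exons came from GENCODE M21 on GRCm38, of which no coordinates are printed.

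Genes were filtered with filterByExpr, scaled by TMM and tested across the whole table with the quasi-likelihood F test of edgeR 4.0.16 in R 4.3.3 (genotype alone, Benjamini-Hochberg over 17721 genes). The groups give a common biological coefficient of variation of 8.22%. DESeq2 1.42.0, limma-voom (limma 3.58.1), other scalings, filters and thresholds, and leaving out each library served as alternatives. So did sex or the summed muscle level as a term and the replicate number as a block. The summed muscle level is the sum of the members themselves, so the fit with it is no separate test of them. Correlations used log2 CPM with a prior count of 2 and exact permutation (numpy 2.4.6, scipy 1.17.1). Length-scaled levels used the longest protein-coding transcript. The scripts were tested on simulated data.

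All 35 members are named. Values of every library are given for the actins, heavy chains, Mylpf, fast and slow troponins T and I, Tpm1, Des, Ckm, Ryr1, Casq2, Myog and Myod1, and for further muscle genes that were called or whose groups did not overlap. Members, lists and tests were chosen with earlier results of these data known. The CArG box and the comparison of the sexes were chosen later, with these values in view.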

Additional observations from a re-analysis of the deposited data

Results flagged for a closer look

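Within the 4 libraries of each genotype, the highest or lowest library was compared with the rest by Dixon's criterion (gap over range above its 95% critical value) for each of the 35 genes. It was passed in 14 of 70 groups of 4 values, each time by AD1 OE 3 as the highest AD1 OE library and by no Control library. AD1 OE 3 was also the only AD1 OE library read as female. Chance flags about 1 in 20 groups, and the genes share their libraries, so the 14 are not independent. In AD1 OE 3 the levels were 107 CPM for Myh8, 98.8 CPM for Actc1, 132 CPM for Mylpf, 53.9 CPM for Tnni2 and 0.497 CPM for Tnnc2. Of the scaffold and calcium handling genes they were 97.7 CPM for Ttn, 33.3 CPM for Neb, 25.3 CPM for Ryr1, 20.2 CPM for Atp2a1, 13.0 CPM for Casq1 and 21.7 CPM for Casq2. Of the metabolic genes they were 54.0 CPM for Ckm, 6.69 CPM for Ampd1 and 31.3 CPM for Pygm. Acta1 and Myh3 did not pass the criterion.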

How the results depend on the processing

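At adjusted p below 0.005, 0 members were called in edgeR, DESeq2, limma-voom and every other scaling, filter, term and left-out library that was tried. The other thresholds were applied only to the edgeR fit of genotype alone with all 8 libraries. The lowest edgeR adjusted p of a member was 0.00838 with sex as a term and 0.00800 without AD1 OE 3, both under 0.05. With the summed muscle level as a term the members were adjusted for their own sum, so that 0 is no separate check. The median log2 fold change of the members was 0.46 with sex as a term and -0.61 without AD1 OE 3, and lay between -0.14 and 0.22 otherwise. The number of genes called in all was 455, against 747 with no expression filter, 129 at adjusted p below 0.05 with a log2 change beyond 1, and 1161 at adjusted p below 0.05 alone. Leaving out single libraries gave 289 (without AD1 OE 1) to 420 (without AD1 OE 3). Correlations of deviations between equal replicate numbers were -0.01, -0.05, -0.04 and 0.31, and only for replicate 4 was this the highest of its comparisons. These few values cannot decide whether libraries shared a litter or a batch. With the replicate block 348 genes and 0 members were called. The ratio of the summed member level between the highest and lowest library was 2.74 and became 5.00 without Tpm1, Tpm2, Des, Eno3, Casq2, Tnnt1 and Actn2, while leaving out single libraries gave 1.83 to 2.74. The lowest was without AD1 OE 3. Leaving out single libraries moved the members called between the sexes from 4 to between 0 and 16. The joint share of Myh3 and Myh8 and the count of 0 adjusted correlations with Acta1 moved by less than the spread between libraries, or stayed at 0, under each alternative tried. Scn4a and Mstn were called by DESeq2, with no filter and with the summed muscle level as a term. Scn4a was called with sex as a term, and Mstn without AD1 OE 3. The cause of these shifts was not tested. Depth limited Myh4, Tnnc2, Myod1 and Myog, with at most 55 counts a library.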
